A study of Mus musculus with 18 samples.

Results

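The activating receptors of type 1 lymphocytes and the adaptor chains that signal for them were followed as 6 genes, taken by symbol from the 46078 genes of the count table: the receptors Ncr1 and Fcgr3 and the adaptors Tyrobp, Fcer1g, Hcst and Cd247. All 6 were among the 14714 genes that passed the filter on low counts. RNA of 200 sorted cells per library was measured in 18 bulk libraries from C57BL/6 mice aged 8 weeks, as 6 groups of 3. The groups were spleen ILC1s, liver ILC1s and liver NK cells of mice with Ncr1-Cre and Rosa26-RARα403 (RARa403 in the plots), each set against the same population of Ncr1-Cre control mice. ILC1s are tissue-resident type 1 innate lymphoid cells, and NK cells are circulating natural killer cells. RARα403 is a truncated, dominant-negative retinoic acid receptor α that Cre switches on, so all 6 groups carry Ncr1-Cre and the RARα403 groups carry the receptor in addition. ILC1s were sorted as CD3-, NK1.1+, NKp46+, CD49a+, CD49b low and IL-7R+ cells and NK cells as CD3-, NK1.1+, NKp46+, CD49a- and CD49b+ cells. Ncr1 itself encodes NKp46, so it lends its name to the Cre allele and its protein was a sorting marker in every group, which limits what its level can show. The labels do not say which libraries came from which animal, and p-values therefore measure the spread between these libraries only. In bulk RNA, fewer cells of a type and less RNA per cell cannot be told apart.

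Activating receptors of these cells have short tails without signalling motifs and pass their signal to small membrane adaptors. Most of the adaptors carry immunoreceptor tyrosine-based activation motifs (ITAMs), whose tyrosines are phosphorylated by Src family kinases and then bind the kinases Syk and ZAP-70. In mice NKp46 pairs with the Fc receptor γ chain (Fcer1g) and CD3ζ (Cd247), and CD16, the product of Fcgr3, pairs with the Fc receptor γ chain. Among other pairings, DAP12 (Tyrobp) serves the Ly49 receptors Ly49D and Ly49H and CD94/NKG2C, and DAP10 (Hcst) serves NKG2D. DAP10 has no ITAM and instead binds the p85 subunit of phosphoinositide 3-kinase.

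The coding stretches that set the adaptors apart are printed here because they define the family and separate Hcst from the other adaptors. They were read 5′ to 3′ on the coding strand from the GENCODE vM21 transcripts of the mouse, and capitals mark the codons of the paired ITAM tyrosines or, in Hcst, the 4 codons of the tyrosine motif that binds p85.
Tyrobp: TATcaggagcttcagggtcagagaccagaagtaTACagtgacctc
Fcer1g: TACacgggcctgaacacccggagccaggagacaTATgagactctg
Cd247, motif 1: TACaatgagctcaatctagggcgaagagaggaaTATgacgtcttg
Cd247, motif 2: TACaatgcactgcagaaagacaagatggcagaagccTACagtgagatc
Cd247, motif 3: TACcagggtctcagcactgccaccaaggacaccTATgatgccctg
Hcst: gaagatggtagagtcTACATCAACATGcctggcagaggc
An ITAM was called where a tyrosine codon stood 3 codons before a leucine or isoleucine codon and the same pattern followed after a spacer of 6 to 8 codons. Tyrobp, with 114 codons, and Fcer1g, with 86, held 1 ITAM each, and Cd247, with 164 codons, held 3. Between the tyrosines lay 11 codons in the second motif of Cd247 and 10 in the other 4 ITAMs. Hcst, with 79 codons, held 0 ITAMs, as did the receptors Ncr1, with 325 codons, and Fcgr3, with 267.

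The genes lie on 2 chromosomes of the mm10 genome. Fcgr3 (chr1:171051174-171064935, minus strand), Fcer1g (chr1:171229572-171234365, minus strand) and Cd247 (chr1:165788681-165877277, plus strand) are on chromosome 1. Ncr1 (chr7:4337724-4345164, plus strand), Tyrobp (chr7:30413760-30417585, plus strand) and Hcst (chr7:30417712-30419854, minus strand) are on chromosome 7. The ends of Tyrobp and Hcst face each other across 126 bases. Exons of Cd247 share 3007 bases, 56.4% of its merged exon length, with Pou2f1, a transcription factor gene on the other strand. The principal Cd247 transcript shares 0 bases with them. No source used here gives the strand setting of the counting, so reads from the shared stretch cannot be assigned, and Pou2f1 is given beside Cd247 below. Fcgr3 has a close relative in Fcgr2b, with which reads of similar sequence could have been exchanged.

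The stretch upstream of Ncr1 is shown because the Cre allele takes its name from this gene and RARα403 acts on retinoic acid receptor targets. Which stretch drives Cre is not given. It is taken from RefSeq promoters of GRCm38.p6, covers chr7:4337465-4337714 on the plus strand and is read 5′ to 3′, with capitals on the motif matches.
Ncr1: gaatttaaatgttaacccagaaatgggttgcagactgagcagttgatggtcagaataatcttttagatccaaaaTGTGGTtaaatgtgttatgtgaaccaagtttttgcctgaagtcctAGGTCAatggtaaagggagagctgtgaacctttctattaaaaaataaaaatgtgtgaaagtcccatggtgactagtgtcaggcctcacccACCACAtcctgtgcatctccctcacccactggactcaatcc
It held 2 matches to the RUNX motif TGTGGT, counted on both strands, and 1 match to AGGTCA, the core motif of retinoic acid receptors, and no matches overlapped. Of 27025 RefSeq promoters of the same length, 14.2% held at least 1 TGTGGT and 13.8% at least 1 AGGTCA, so a match to either is common. The shares with 2 matches or with both motifs were not computed. The ETS motif GGAAGT, which 20.0% of promoters held, had 2 matches upstream of Hcst and 1 upstream of Cd247, and the T-box motif AGGTGT, which 11.99% held, had 0 in the 5 members with an entry. Tyrobp was not among the entries. These letters describe the windows and say nothing of binding.

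Total counts per library ran from 3452279 to 9038767. The 7 ILC1 markers summed to between 1842 and 3748 CPM (counts scaled to library size) in ILC1 libraries and to between 85.5 and 393 CPM in NK libraries. The 7 NK markers summed to 1042 to 3050 CPM in ILC1 libraries, and to 1894 to 11184 CPM in RARα403 and 8625 to 12167 CPM in control NK libraries. The lowest of these NK sums, within the range of the ILC1s, was that of liver NK RARα403 library 1. That library stood apart also in that its mean correlation with its own group was 0.633 and 192 of 2735 genes above 50 CPM in every other library had 3 or fewer counts in it, against 0 such genes in each of the other 17 libraries. It also had 1764 counts of Rara, against 119 to 399 in the others. Gt(ROSA)26Sor, the transcript of the targeted Rosa26 locus, had at least 365 counts in replicate 1 of the RARα403 spleen and liver ILC1s and 0 to 10 counts in the other 7 RARα403 libraries, against 104 to 1260 counts in control libraries. Many estimates are also given for 17 libraries, without liver NK RARα403 library 1, and for 15, without replicate 1 of RARα403 in all 3 populations.

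Per kilobase of merged exon, and as the mean of 17 libraries on the log2 scale, the order of levels was Ncr1 (10.79), Fcer1g (10.55), Tyrobp, Hcst (6.80), Fcgr3 (5.72) and Cd247 (4.44). Single libraries ranged from 10.50 to 11.12 for Ncr1, from 10.12 to 10.84 for Fcer1g and from 9.13 to 10.75 for Tyrobp, so these 3 overlapped. Hcst, from 6.05 to 7.60, overlapped Fcgr3, from 5.02 to 6.39, and Fcgr3 overlapped Cd247, from 3.19 to 5.74. Tyrobp and Hcst, the neighbours on chromosome 7, did not overlap. Per kilobase of the principal transcript Fcer1g (10.93) stood above Ncr1 (10.87) and Cd247 (6.15) above Fcgr3 (6.09), so the order within these pairs depends on the length used.

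**Figure D1:**
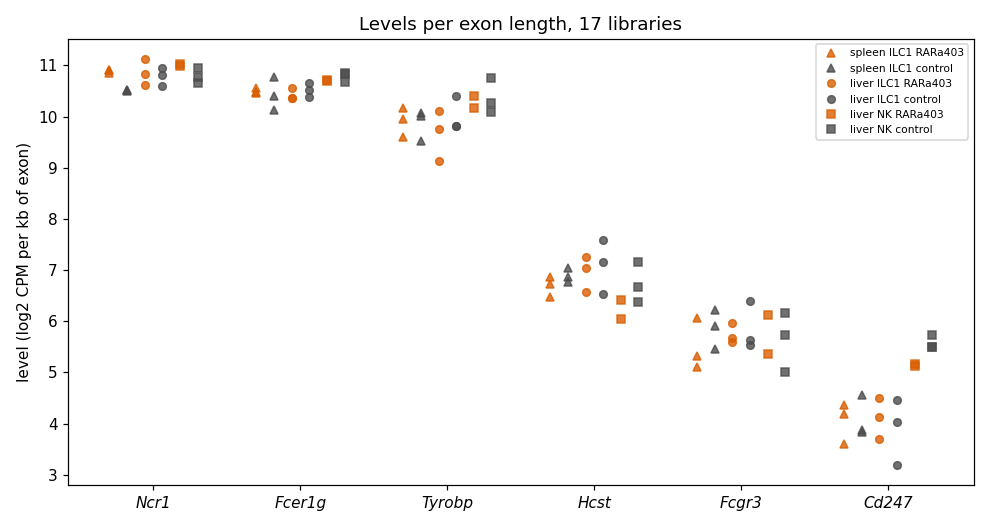
Level of each gene per kilobase of merged exon (vertical axis, log2 CPM per kilobase) in 17 libraries, 1 point per library, with shape for the population and colour for the genotype. Ncr1, Fcer1g and Tyrobp lie between 9.13 and 11.12, Hcst, Fcgr3 and Cd247 between 3.19 and 7.60.

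The genes differed in how much they varied. Over the same 17 libraries the standard deviation of log2 CPM was 0.197 for Ncr1 and 0.196 for Fcer1g. Of the 5823 genes that averaged 5 log2 CPM or more, 4.26% and 4.02% varied less. These genes were not matched for level, and 99.9% and 99.6% of tested genes had a lower level than Ncr1 and Fcer1g. With liver NK RARα403 library 1 the range rose from 0.62 to 1.66 for Ncr1 and from 0.72 to 1.23 for Fcer1g. Tyrobp (0.380), Hcst (0.385) and Fcgr3 (0.399) lay near the middle of those genes, with 49.2%, 50.8% and 54.2% varying less. Cd247 varied most of the 6, with a standard deviation of 0.740, above 94.0% of the genes.

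**Figure D2:**
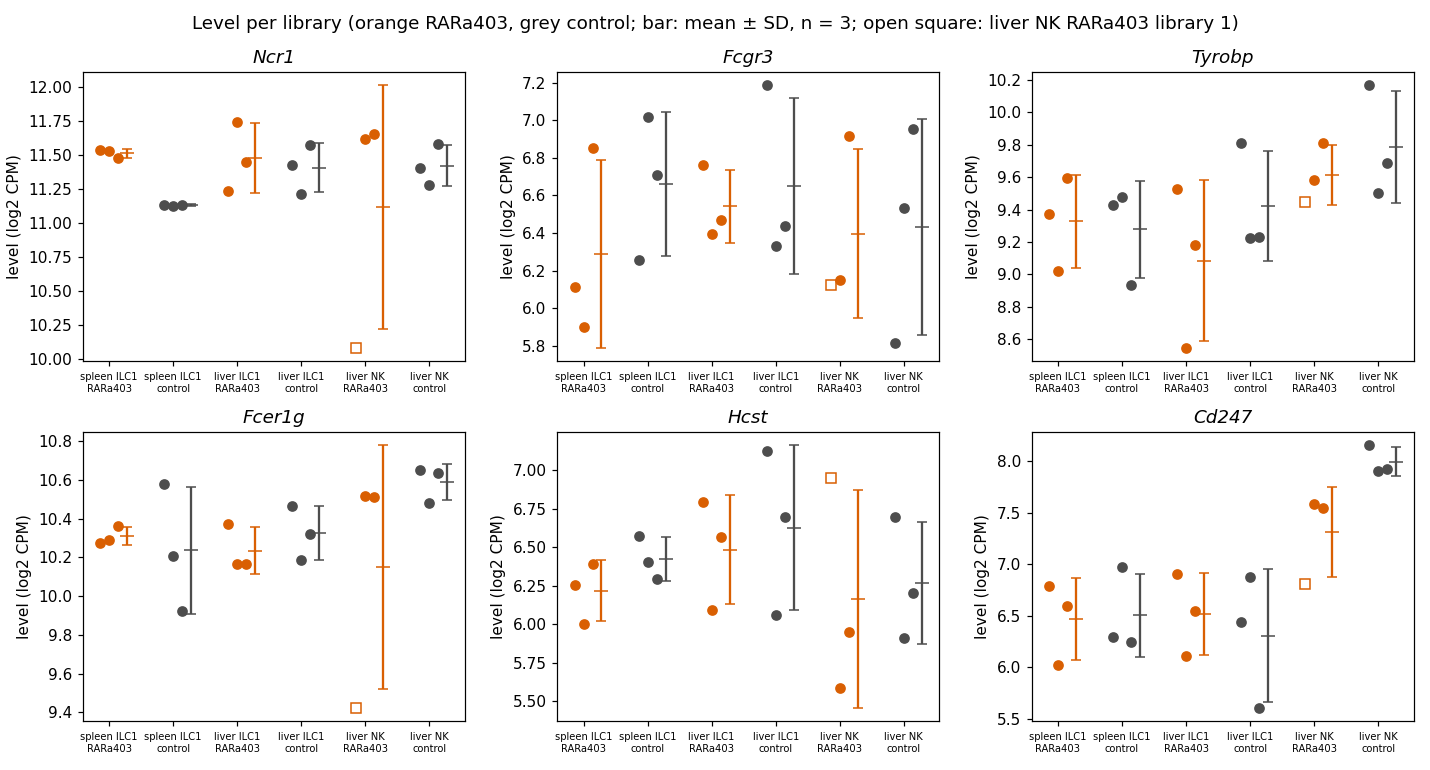
Level of each gene (vertical axis, log2 CPM, with its own range per panel) in every library, by group, with the group mean ± SD (n = 3) beside the points. Cd247 is higher in control liver NK cells, at 7.90 to 8.15, than in all 12 ILC1 libraries, and liver NK RARα403 library 1 (open square) is lowest for Ncr1 and Fcer1g.

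RARα403 was compared with control in each population to ask whether blocking retinoic acid receptor signalling alters the receptors and adaptors. None of the 6 passed an adjusted p of 0.05 in spleen ILC1s, liver ILC1s, liver NK cells or the mean of the 3 (edgeR quasi-likelihood test with Benjamini-Hochberg adjustment, here and below). In each of these comparisons 0 of the 14714 genes passed, a share of 0%, so the count for the 6 genes has nothing to be read against. At an unadjusted p below 0.05 there were 425, 432, 1418 and 931 genes, and DESeq2 called 20, 33, 153 and 78. With no effect, a share of 0.05 of the 14714 genes would fall below that p on average. The 425 and 432 genes of the ILC1s are fewer than that. For the mean effect the 95% intervals of the 6 genes lay between -0.65 and 0.46 on the log2 scale.

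Ncr1 had 11.53, 11.53 and 11.48 log2 CPM in RARα403 spleen ILC1s, against 11.13, 11.12 and 11.13 in control spleen ILC1s. All 3 RARα403 libraries lay above all 3 controls there, as 4.12% of tested genes did. The difference was 0.38 (SE 0.29, 95% interval -0.24 to 1.01, adjusted p = 1). Without liver NK RARα403 library 1 the estimate was 0.38 with a smaller SE of 0.13 (unadjusted p = 0.0101, adjusted p = 0.887), and in 15 libraries it was 0.37 (SE 0.13, adjusted p = 0.933).

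In liver ILC1s Ncr1 had 11.23, 11.74 and 11.44 log2 CPM with RARα403, against 11.43, 11.21 and 11.57 in controls. In liver NK cells it had 10.08, 11.61 and 11.65 with RARα403, against 11.41, 11.28 and 11.58 in controls. The groups overlapped in both liver populations, and the value of 10.08 belongs to the library that stood apart. The mean effect over the 3 populations was 0.10 (SE 0.17, adjusted p = 1), and it was 0.22 (SE 0.08, adjusted p = 0.666) in 17 libraries and 0.25 (SE 0.08, adjusted p = 0.587) in 15. The difference in effect between spleen and liver ILC1s, tested as an interaction, was 0.30 (SE 0.42, adjusted p = 1) in 18 libraries and 0.18 (SE 0.19, adjusted p = 1) in 15.

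Fcgr3, the low-affinity receptor for IgG, ranged from 5.81 to 7.19 log2 CPM over the 18 libraries. Its mean was 6.29 ± 0.50 in RARα403 and 6.66 ± 0.38 in control spleen ILC1s, 6.54 ± 0.19 in RARα403 and 6.65 ± 0.47 in control liver ILC1s, and 6.40 ± 0.45 in RARα403 and 6.43 ± 0.58 in control liver NK cells (SD, n = 3 each). All groups overlapped, and the mean effect was -0.19 (SE 0.22, adjusted p = 1) in 18 libraries and -0.15 in 17 (SE 0.21, adjusted p = 1) and in 15 (SE 0.23, adjusted p = 1). Its highest value, 7.19, was in control liver ILC1 library 1, which also had the highest Hcst. Macrophage and monocyte markers, a list of 12 genes, summed to 291 CPM in that library, the second highest sum. The highest sum was 520 CPM in control spleen ILC1 library 3, where Fcgr3 was 6.71 log2 CPM, and the median sum was 11.3 CPM. By group that sum ranged from 44.9 to 48.2 CPM in RARα403 and from 12.1 to 520 CPM in control spleen ILC1s, from 3.67 to 109 and from 0.220 to 291 CPM in RARα403 and control liver ILC1s, and from 0 to 4.61 and from 8.72 to 10.5 CPM in RARα403 and control liver NK cells. Adgre1, the F4/80 antigen, and Csf1r were at 0 in all liver NK libraries. Of the 12 genes, 1 and 2 had more than 3 counts in some library of RARα403 and control NK cells. Adgre1 was also at 0 in all RARα403 liver ILC1 libraries, a group in which 10 of the 12 genes had more than 3 counts in some library. The part of such cells in the Fcgr3 values was not tested. Of the other Fc receptors for IgG, Fcgr1 had 0 to 7 counts and was at 0 in 16 libraries, and Fcgr4 had 0 to 141 counts and was at 0 in 14.

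Tyrobp, DAP12, had 9.37, 9.02 and 9.59 log2 CPM in RARα403 spleen ILC1s, against 9.43, 9.48 and 8.94 in controls. In liver ILC1s it had 9.53, 8.55 and 9.18 with RARα403, against 9.81, 9.22 and 9.23 in controls. In liver NK cells it had 9.45, 9.59 and 9.81 with RARα403, against 10.17, 9.50 and 9.69 in controls. The genotypes overlapped in every population, and the mean effect was -0.15 (SE 0.16, 95% interval -0.50 to 0.20, adjusted p = 0.988) in 18 libraries and -0.21 (SE 0.16, adjusted p = 0.912) in 15. In liver ILC1s the difference was -0.31 (SE 0.28) in 18 libraries and -0.55 (SE 0.28, adjusted p = 0.961) in 15.

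Hcst, DAP10, had 6.25, 6.00 and 6.39 log2 CPM in RARα403 spleen ILC1s, against 6.57, 6.40 and 6.29 in controls. In liver ILC1s it had 6.79, 6.09 and 6.56 with RARα403, against 7.13, 6.06 and 6.69 in controls. In liver NK cells it had 6.95, 5.58 and 5.95 with RARα403, against 6.69, 5.91 and 6.20 in controls. The genotypes overlapped in every population. The mean effect was -0.14 (SE 0.22, adjusted p = 1) in 18 libraries, -0.31 (SE 0.17, adjusted p = 0.837) in 17 and -0.37 (SE 0.19, adjusted p = 0.738) in 15. The library left out in 17 held the highest Hcst of its group, 6.95, and the difference in NK cells was -0.03 with it and -0.54 (SE 0.32, adjusted p = 1) without it.

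Fcer1g, the Fc receptor γ chain, had 10.28, 10.29 and 10.36 log2 CPM in RARα403 spleen ILC1s, against 10.58, 10.21 and 9.92 in controls. In liver ILC1s it had 10.37, 10.17 and 10.16 with RARα403, against 10.47, 10.19 and 10.32 in controls. In liver NK cells it had 9.42, 10.52 and 10.51 with RARα403, against 10.65, 10.48 and 10.64 in controls. The genotypes again overlapped everywhere, and 9.42 came from the library that stood apart. The mean effect was -0.13 (SE 0.15, adjusted p = 0.988) in 18 libraries, -0.04 (SE 0.09, adjusted p = 1) in 17 and -0.06 (SE 0.10, adjusted p = 1) in 15. Without that library the difference in NK cells was -0.09 (SE 0.17, adjusted p = 1), against -0.36 (SE 0.25, adjusted p = 0.719) in 18 libraries. Mast cells and basophils also carry Fcer1g, and their markers, a list of 6 genes, summed to 149 to 242 CPM in RARα403 and 78.5 to 165 CPM in control spleen ILC1s. The sum was 99.1 to 197 and 80.2 to 233 CPM in RARα403 and control liver ILC1s, and 21.6 to 43.4 and 35.5 to 90.7 CPM in RARα403 and control liver NK cells. Between 2 and 4 of the 6 had more than 3 counts in some library of a group. Fcer1a, the IgE-binding chain, was at 0 in all groups but the RARα403 liver NK cells. Ms4a2, the β chain of that receptor, was at 0 in all but the RARα403 spleen ILC1s and control liver NK cells. Mcpt8 was at 0 in control spleen ILC1s and both NK groups, and Gata2 in both liver ILC1 groups and control NK cells. Cpa3 and Kit were at 0 throughout in no group. Which of the 6 made up the sums was not tested. The part of such cells in the Fcer1g values was not tested.

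Cd247, CD3ζ, had 6.79, 6.02 and 6.60 log2 CPM in RARα403 spleen ILC1s, against 6.29, 6.97 and 6.25 in controls. In liver ILC1s it had 6.91, 6.11 and 6.54 with RARα403, against 6.45, 6.88 and 5.60 in controls. In liver NK cells it had 6.81, 7.58 and 7.55 with RARα403, against 8.15, 7.90 and 7.92 in controls. In NK cells all 3 RARα403 libraries lay below all 3 controls, as 4.72% of tested genes did, and in both ILC1 populations the genotypes overlapped. The difference in NK cells was -0.64 (SE 0.36, 95% interval -1.40 to 0.12, adjusted p = 0.588), and without the library that stood apart it was -0.44 (SE 0.35, adjusted p = 1). The effect in liver ILC1s minus that in NK cells was 0.80 (SE 0.51, adjusted p = 0.864) in 18 libraries, 0.61 (SE 0.46, adjusted p = 1) in 17 and 0.39 (SE 0.47, adjusted p = 1) in 15. The mean effect was -0.17 (SE 0.21, adjusted p = 1) in 18 libraries and -0.23 (SE 0.19, adjusted p = 0.946) in 15.

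**Figure D3:**
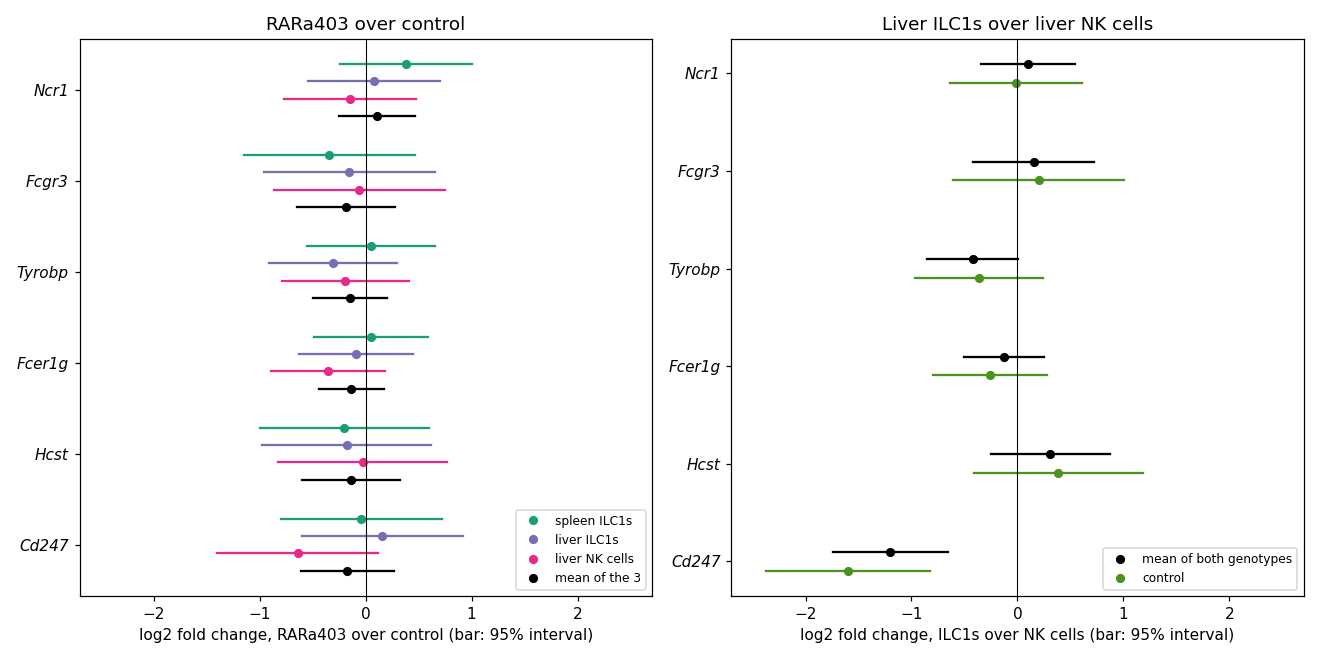
Log2 fold changes of the 6 genes with 95% intervals, RARα403 over control by population and for the mean of the 3 (left) and liver ILC1s over liver NK cells for both genotypes and for controls (right). Every interval on the left includes 0, and on the right only those of Cd247, -1.74 to -0.66 and -2.38 to -0.82, do not.

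Liver ILC1s were compared with liver NK cells, the other type 1 lymphocyte of that organ. Cd247 was the member that fell in ILC1s. Over both genotypes it was 2.30-fold lower in ILC1s (log2 difference -1.20, SE 0.26, 95% interval -1.74 to -0.66, adjusted p = 0.0201), while the other 5 did not pass. In that comparison 2.09% of the 14714 genes passed and 0.7% were called lower. In controls alone the difference was -1.60 (SE 0.37, 95% interval -2.38 to -0.82, adjusted p = 0.0661), which did not pass, and 0.605% of genes did. Every one of the 12 spleen and liver ILC1 libraries lay below the 3 control NK libraries, as 1.69% of tested genes did. With the RARα403 NK libraries included the populations overlapped, since liver NK RARα403 library 1, at 6.81, lay below RARα403 liver ILC1 library 1 (6.91) and control ILC1 libraries 2 of liver (6.88) and spleen (6.97).

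How firmly Cd247 was called depended on the libraries. For both genotypes it was -1.30 (adjusted p = 0.00353) in 17 libraries, where 3.04% of genes passed, and -1.41 (adjusted p = 0.00299) in 15, where 3.9% did. In controls it passed without liver NK RARα403 library 1 (-1.60, adjusted p = 0.0125, with 1.75% of genes called) and in 15 libraries (-1.60, adjusted p = 0.0103, with 2.3%). With the replicate number as a block within each genotype, which pairs the control liver libraries, the control difference was -1.69 (adjusted p = 0.112) and 29 genes were called in place of 89. For both genotypes the adjusted p rose to between 0.0518 and 0.0798 when control liver ILC1 library 1 or 3, RARα403 liver ILC1 library 2 or 3, or control NK library 1 or 3 was left out, with differences from -1.06 to -1.22. Without replicate 1 of every group, whose sample codes open with another number than those of replicates 2 and 3, it was -1.40 (adjusted p = 0.0193, with 4.16% of genes called) for both genotypes and -1.57 (adjusted p = 0.103, with 1.56%) in controls. DESeq2 called it in controls (adjusted p = 0.00061, with 2.94% of genes called) and in both genotypes (adjusted p = 0.00011, with 5.79%), as did edgeR without the filter (adjusted p = 0.0444, with 1.08%, and 0.00923, with 2.95%).

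The overlapping gene and the T cell markers were read beside this difference. Pou2f1, which overlaps Cd247, averaged 5.33 ± 0.44 and 4.61 ± 0.13 log2 CPM in RARα403 and control liver ILC1s and 5.78 ± 1.43 and 5.44 ± 0.21 in RARα403 and control NK cells (SD, n = 3 each), a difference over both genotypes of -0.86 (SE 0.43, adjusted p = 0.398). In 17 libraries that difference was -0.27 (SE 0.34, adjusted p = 0.883). In controls alone Pou2f1 ran the same way as Cd247, at 4.46 to 4.69 in all 3 ILC1 libraries and 5.20 to 5.58 in all 3 NK libraries, as 8.2% of tested genes did. That control difference was -0.84 (SE 0.62, adjusted p = 0.908) in 18 libraries and -0.85 (SE 0.46, adjusted p = 0.502) in 17. The T cell markers, a list of 10 genes that includes the CD3 chains, summed to 1698 to 2137 CPM in liver ILC1s and to 645 to 1000 CPM in liver NK cells, so they ran opposite to Cd247. Of the 10 genes, 8 and 10 had more than 3 counts in some library of RARα403 and control liver ILC1s. In RARα403 and control NK cells 5 and 6 did. Cd8a, Cd8b1 and Cd5 were at 0 in all NK libraries. Cd8a and Cd8b1 were also at 0 in all RARα403 liver ILC1 libraries, the group with the highest sum. The part of T cell RNA or of Pou2f1 reads in the Cd247 values was not tested.

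The other members did not pass between liver ILC1s and NK cells. Over both genotypes the log2 difference was 0.10 for Ncr1 (SE 0.21, adjusted p = 0.952) and 0.15 for Fcgr3 (SE 0.27, adjusted p = 0.928). It was -0.42 for Tyrobp (SE 0.20, adjusted p = 0.363), -0.13 for Fcer1g (SE 0.18, adjusted p = 0.888) and 0.31 for Hcst (SE 0.27, adjusted p = 0.714). In 17 libraries Tyrobp was -0.45 (adjusted p = 0.293), Fcer1g -0.26 (adjusted p = 0.294) and Hcst 0.57 (adjusted p = 0.217). Fcer1g in controls was lower in all 3 ILC1 libraries than in all 3 NK libraries, as were 8.2% of tested genes, by 0.26 (SE 0.25, adjusted p = 1).

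Because Fcer1g and Cd247 both serve NKp46, and Hcst and Tyrobp stand for the ITAM-free and ITAM routes, the difference of their levels within a library was compared as well, with exact two-sided permutation tests within genotype or population and 4 tests in all. Fcer1g minus Cd247 was 3.71 ± 0.31 and 4.02 ± 0.70 in RARα403 and control liver ILC1s, against 2.83 ± 0.19 and 2.60 ± 0.11 in RARα403 and control NK cells (SD, n = 3 each). The balance lay further towards Fcer1g in all 6 liver ILC1 libraries, from 3.31 to 4.72, than in all 6 NK libraries, from 2.50 to 2.96. The difference was 1.15 (exact permutation p = 0.005, the smallest that 400 splits allow, adjusted p = 0.02). That test took the libraries as unpaired, although the replicate numbers pair the control liver libraries. A p-value for same-numbered pairs is not given here for this balance. Cd247 is 1 of its terms, so the test is not independent of the Cd247 result. The share of other gene pairs that separate these libraries as well was not computed, for this balance or for Hcst minus Tyrobp. Adjusted p-values of the balances cover the 4 tests only, which were chosen with earlier results of these data known. In liver NK RARα403 library 1, whose balance was 2.61, both Fcer1g (9.42) and Cd247 (6.81) were the lowest of the NK libraries, and without it the difference was 1.09 (exact permutation p = 0.005). Spleen ILC1s had 3.84 ± 0.39 with RARα403 and 3.73 ± 0.53 in controls (SD, n = 3 each), close to the liver ILC1s.

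Hcst minus Tyrobp was -2.60 ± 0.14 and -2.79 ± 0.33 in RARα403 and control liver ILC1s, against -3.45 ± 0.83 and -3.52 ± 0.07 in RARα403 and control NK cells (SD, n = 3 each). The difference was 0.79 (exact permutation p = 0.015, adjusted p = 0.03), and 5 of the 6 NK libraries lay below all 6 ILC1 libraries. The exception, at -2.50, was the library that stood apart, and without it the difference was 1.03 (exact permutation p = 0.005). With libraries of the same number taken as pairs the exact permutation p was 0.0625. Spleen ILC1s had -3.11 ± 0.09 with RARα403 and -2.86 ± 0.21 in controls (SD, n = 3 each). Between genotypes neither balance passed, with 0.01 for Fcer1g minus Cd247 (exact permutation p = 0.944) and 0.00032 for Hcst minus Tyrobp (exact permutation p = 1).

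**Figure D4:**
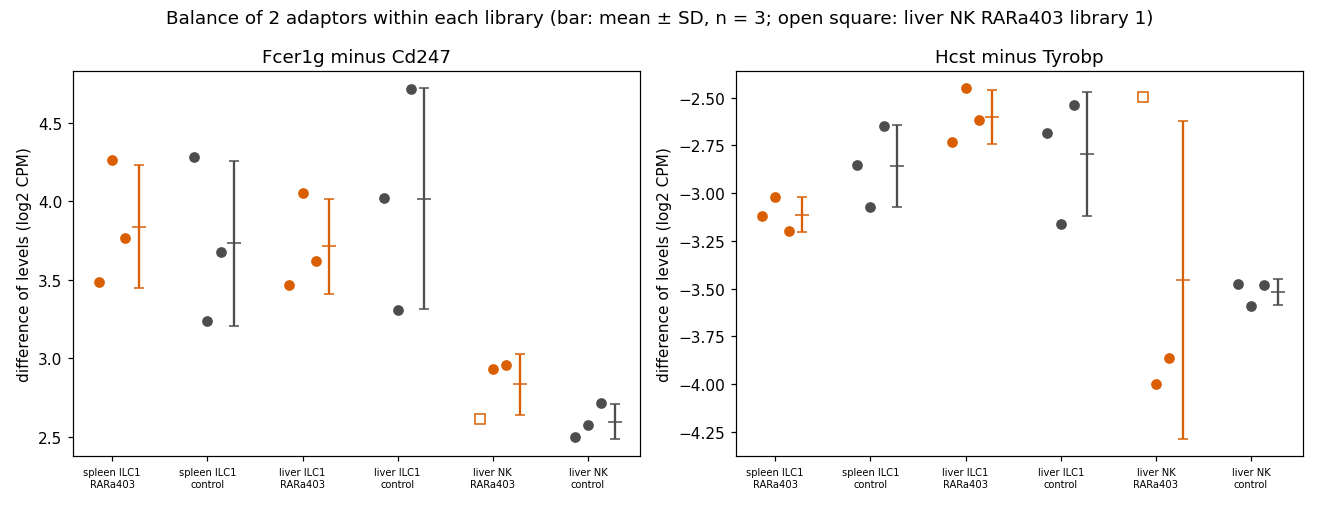
Difference of 2 adaptor levels within each library (vertical axis, log2 CPM), by group, with the group mean ± SD (n = 3). Fcer1g minus Cd247 (left) lies at 3.31 to 4.72 in liver ILC1s and at 2.50 to 2.96 in NK cells, and Hcst minus Tyrobp (right) is lower in NK cells except in liver NK RARα403 library 1 (open square).

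ILC1s of the 2 organs were set against each other in control mice, spleen over liver. None of the 6 passed, nor did any of the 14714 genes (0%), with 468 at an unadjusted p below 0.05 and 26 called by DESeq2. The 468 are fewer than the share of 0.05 that no effect would give on average. Ncr1 was lower in all 3 control spleen libraries, at 11.12 to 11.13, than in the 3 control liver libraries, at 11.21 to 11.57, as were 4.15% of tested genes. That difference was -0.28 (SE 0.29, adjusted p = 1). The other 5 overlapped, with differences from -0.27 for Hcst to 0.14 for Cd247.

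The genes around the adaptors were read from lists of the pathway. Between liver ILC1s and NK cells over both genotypes, 3 of the 9 tested genes of the receptor list passed, 1 higher and 2 lower in ILC1s. Fcgr1, Fcgr4 and Trem2 of that list were too low to test. The list also holds Cd160, for which no pairing with these adaptors is claimed. Of all tested genes 1.39% were called higher and 0.7% lower. The median of the 9 was -0.39 on the log2 scale, against 0.05 over all genes. Klra8 (Ly49H, adjusted p = 0.00142) and Klra4 (Ly49D, adjusted p = 0.00217), which signal through DAP12, fell. Klra8 had 2 to 2586 and 0 to 6 counts in RARα403 and control liver ILC1s, against 4546 to 10168 and 8086 to 11948 counts in RARα403 and control NK cells. Klra4 had 0 to 872 and 0 to 9 counts in RARα403 and control liver ILC1s, against 2340 to 11316 and 6634 to 7972 counts in the NK cells. The Ly49 genes are close copies of each other, so how reads were shared among them is uncertain. Cd160, a receptor of NK cells and T cells, rose by 2.89 (SE 0.63, adjusted p = 0.0234) on the log2 scale, with 4262 to 7028 and 3821 to 9248 counts in RARα403 and control liver ILC1s, against 3 to 1623 and 954 to 1213 counts in RARα403 and control NK cells. Klrk1, NKG2D and so a partner of DAP10 (named after its value was seen), had a difference of 0.14 (SE 0.22, adjusted p = 0.905).

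Of 5 other ITAM chains 3 rose in ILC1s and 0 fell, with a median of 3.21. These were Cd3e (adjusted p = 0.000333), Cd3g (adjusted p = 0.00358) and Cd3d (adjusted p = 0.0143), chains of the T cell receptor complex, which are also T cell markers, while surface CD3 had been excluded in the sort. Cd3e had 31 to 769 and 51 to 150 counts in RARα403 and control liver ILC1s, against 0 to 1 and 0 to 3 counts in RARα403 and control NK cells. Cd3g had 1139 to 2763 and 814 to 1062 counts in the RARα403 and control ILC1s, against 0 to 64 and 0 to 125 counts in the NK cells. Cd247, a chain of the same complex, fell in the same comparison, as given above.

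Of 15 kinases and adaptors downstream, 2 rose and 2 fell in ILC1s, with a median of -0.089. Plcg1, phospholipase C-γ1, rose (adjusted p = 8.86e-06), with 227 to 557 and 146 to 462 counts in RARα403 and control ILC1s, against 0 to 1 and 17 to 43 counts in RARα403 and control NK cells. Lcp2, the scaffold SLP-76, rose by 0.84 (SE 0.18, adjusted p = 0.0220). Fyn, a Src family kinase, fell by 1.27 (SE 0.25, adjusted p = 0.0113), and Lat2, the scaffold NTAL, fell by 0.86 (SE 0.17, adjusted p = 0.0113). The kinases that bind ITAMs, named after their values were seen, did not pass, with -1.56 for Syk (SE 0.42, adjusted p = 0.0720) and 0.28 for Zap70 (SE 0.29, adjusted p = 0.795).

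Of 6 inhibitory partners 1 fell, with a median of -0.46. Fcgr2b, the inhibitory Fc receptor, had 0 to 318 and 0 to 6 counts in RARα403 and control liver ILC1s, against 224 to 644 and 649 to 894 counts in RARα403 and control NK cells (adjusted p = 0.0321). Its relative Fcgr3 differed by 0.15, as given above.

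**Figure D5:**
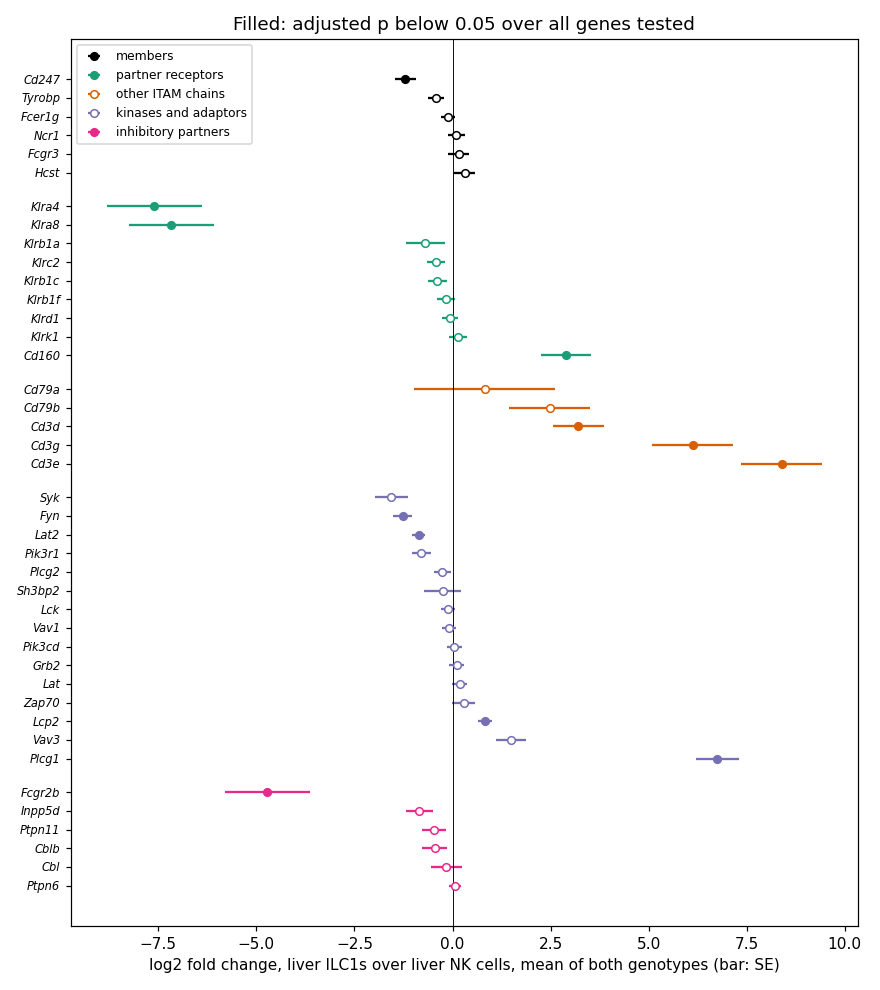
Log2 fold change with SE, liver ILC1s over liver NK cells as the mean of both genotypes, for the 6 genes and the tested genes of 4 pathway lists, filled where the adjusted p was below 0.05. Cd247 is the filled point among the 6 genes, and fitted values of genes near 0 counts in a group, such as Cd3e, Klra4 and Klra8, depend on the prior count.

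For RARα403 against control, as the mean over the 3 populations, 0 of the tested genes of these lists (9, 5, 15 and 6) passed in either direction, where 0% of all genes did. The medians were -0.31 for the receptors, 0.13 for the other ITAM chains, -0.013 for the kinases and adaptors and 0.21 for the inhibitory partners, against 0.01 over all genes. Klra8, with 2.97 (SE 0.75, adjusted p = 0.545), and Klra4, with 2.33 (SE 0.81, adjusted p = 0.764), had the smallest p among the receptors. Both were near 0 counts in control liver ILC1s, and in NK cells their counts overlapped between genotypes, as given above. These means therefore do not show an effect shared by the 3 populations. Plcg1 had -2.10 (SE 0.39, adjusted p = 0.268) in 18 libraries and -2.77 (SE 0.40, adjusted p = 0.0174) in 17, where 0.0483% of genes passed. In NK cells alone Plcg1 was the gene called in 17 libraries, where 0.00604% passed, at 0 to 1 counts in RARα403 NK cells and 17 to 43 in control NK cells.

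Genes whose levels ran most alike over 17 libraries were named for each member, from 5664 genes averaging 5 log2 CPM or more, as descriptions of libraries that share populations and depth. Cd247 ran with Pfkp (Pearson r = 0.93), H2afz (0.92) and Plek (0.89), and Fcer1g with Nkg7 (0.91), Arpc5 (0.87) and Klre1 (0.83). Tyrobp ran with Trappc4 (0.88), Mien1 (0.84) and Nkg7 (0.83), and Fcgr3 with Ypel3 (0.80), Ipo8 (0.78) and Hdac5 (0.73). Ncr1 ran with Ttf1 (0.76), Ppp2r5c (0.75) and Extl3 (0.73), and Hcst with Rps27 (0.75), Itpa (0.74) and Ptpn18 (0.72). With liver NK RARα403 library 1 included, r was -0.55 for Ncr1 with Extl3 and 0.01 for Fcgr3 with Ipo8, so those pairings rest on leaving it out. Among the members, Tyrobp ran with Fcer1g (0.77 in 17 libraries, 0.49 in 18) and with Cd247 (0.69 in both), and Fcer1g with Cd247 (0.61 in 17, 0.41 in 18), while Ncr1 had r of 0.23 with Fcer1g in 17 libraries and 0.73 in 18.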

How the data were processed

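RNA of sorted cells was amplified with a SMART-seq kit and sequenced as 18 libraries, per the labels' protocols. The deposited table holds whole-number gene counts. Per the submitters' processing notes, the authors used fastp 0.23.0, HISAT2 2.1.0, Subread 1.6.5 and featureCounts with the build mm10. No source used here gives the annotation release, strand setting or treatment of multiply aligned reads.

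Every column belonged to a sample. Of 46078 genes 45143 matched a symbol, and the others held 0.0544% of counts. Genes were kept by edgeR's filterByExpr (minimum count 10), scaled by TMM and fitted with edgeR 4.0.16 in R 4.3.3, by its quasi-likelihood method, over all 18 libraries with 6 group means. P-values were adjusted over all tested genes (Benjamini-Hochberg) and called below 0.05. A prior count of 2 was added for log2 CPM levels. Each standard error is the log2 fold change over the root of F, and intervals are at 95%. Differences of adaptor levels were tested by exact permutation over libraries. The edgeR and DESeq2 fits were run on simulated counts, for control liver ILC1s against NK cells and for RARα403 in spleen ILC1s. The outcome is not given here. Counts over 3452279 to 9038767 per library put 3 counts at 0.332 to 0.869 CPM.

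Same-numbered libraries of control liver ILC1s and NK cells deviated together (r from 0.103 to 0.256 over 5667 genes, above 0.1 in all 3 pairs), as did those of control spleen and liver ILC1s (0.130 to 0.162), so the numbers pair these control comparisons. No other pair of groups had all 3 above 0.1. By rank, the same-numbered library correlated best in 14 of 18 cases between populations of a genotype, the control comparisons above included. Between genotypes it did so in 3 of 9. It was best for all 3 numbers also in RARα403 liver ILC1s with NK cells (r from 0.025 to 0.048). The same held for control spleen ILC1s with NK cells (0.061 to 0.192). Alternatives were DESeq2 1.42.0, RLE factors, no filter, replicate blocks, 15 libraries, a prior count of 0.5 for the balances and leaving out each library. Replicates 2 and 3 only was chosen after seeing the data.

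The members, gene lists, comparisons and tests were chosen with earlier results of these data known. Named genes are the 6 members, in each list those past the threshold (at most 4 by smallest p) or otherwise up to 2 by smallest p, genes overlapping a member, and the 3 most correlated genes per member, without predicted and unnamed genes. Klrk1, Syk, Zap70, Fcgr1, Fcgr4, Trem2, Rara, Gt(ROSA)26Sor and the single marker genes Adgre1, Csf1r, Fcer1a, Ms4a2, Cd8a, Cd8b1 and Cd5 fall outside it and were chosen after their values were seen. The same holds for Mcpt8, Gata2, Cpa3 and Kit. In the list of kinases and adaptors 1 gene is not reported here and is left out of its counts and median.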

Additional observations from a re-analysis of the deposited data

How the results depend on the processing

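The fall of Cd247 in liver ILC1s kept its direction under every alternative tried, while the number of genes called around it did not. In the order RARα403 against control in liver ILC1s, liver NK cells, spleen ILC1s and their mean, then liver ILC1s against NK cells in controls and in both genotypes, DESeq2 called 33, 153, 20, 78, 419 and 825 genes, against 0, 0, 0, 0, 89 and 307 in edgeR. Without the filter the counts were 43, 523, 32, 230, 355 and 966, in 15 libraries 2, 3, 2, 10, 356 and 604, and in the 12 libraries of replicates 2 and 3, chosen after seeing the data, 1, 2, 1, 13, 221 and 590. For control spleen against liver ILC1s and the interactions of Cd247 and Ncr1, DESeq2 called 26, 43 and 18 and the unfiltered fit 78, 268 and 41, against 0 in each. Leaving out 1 library gave 0 to 1, 0 to 2, 0 to 0, 0 to 8, 18 to 290 and 160 to 503 genes in the order above, and 0 to 1, 0 to 1 and 0 to 0 in the last 3. The cause was not tested.

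The replicate block called 69 genes in controls and 256 in both genotypes between liver ILC1s and NK cells, and the block within genotype called 29 in controls. The replicate block changed none of the 44 calls on the members, and outside the control comparisons same-numbered libraries did not all deviate together (r from -0.07 to 0.26). Cd247 in controls passed with DESeq2 (adjusted p = 0.00061), without the filter (0.0444) and in 15 libraries (0.0103), and its adjusted p was 0.0125 to 0.344 when 1 library was left out.

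Hcst minus Tyrobp between liver ILC1s and NK cells was 0.787 (exact permutation p = 0.0625) in replicate pairs and 1.04 in 12 libraries, and Fcer1g minus Cd247 was 1.13 there, both with p = 0.0556, the smallest that 36 splits allow. Leaving out 1 library gave 0.65 to 1.03 and 0.97 to 1.33. Between genotypes Hcst minus Tyrobp turned to -0.00012 with a prior count of 0.5, -0.14 in 15 libraries and -0.11 in 12, and ranged from -0.16 to 0.092 with 1 library left out, as Fcer1g minus Cd247 did from -0.10 to 0.13.

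Some member differences that did not pass changed sign, and those of Fcgr3 reached -0.40 and 0.50 in 12 libraries. For RARα403 in liver ILC1s, Cd247 was -0.051 in 15 libraries and -0.028 in 12, and Fcgr3 0.046 in 12. In NK cells Ncr1 was 0.19 in 15 and 0.18 in 12, Fcgr3 0.056 in 15, Tyrobp 0.086 in 12, and Hcst 0.060 with DESeq2, 0.062 with RLE factors and 0.011 without the filter. The mean effect on Fcer1g was 0.029 in 12. Between control liver ILC1s and NK cells Ncr1 was 0.0023 with DESeq2 and 0.0022 with RLE, and Fcgr3 -0.40 in 12. Over both genotypes Ncr1 was -0.018 in 15 and -0.047 in 12, and Fcgr3 -0.27 in 12. Between control spleen and liver ILC1s Fcgr3 was 0.50 and Tyrobp 0.020 in 12.

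Leaving out 1 library turned these ranges across 0. For RARα403 in liver ILC1s they were -0.068 to 0.19 (Ncr1), -0.31 to 0.17 (Fcgr3), -0.41 to 0.10 (Hcst) and -0.12 to 0.47 (Cd247). In NK cells they were -0.38 to 0.19 (Ncr1), -0.37 to 0.23 (Fcgr3), -0.33 to 0.024 (Tyrobp) and -0.54 to 0.24 (Hcst). In spleen ILC1s they were -0.10 to 0.19 (Tyrobp), -0.093 to 0.24 (Fcer1g) and -0.19 to 0.24 (Cd247). Between liver ILC1s and NK cells they were -0.11 to 0.070 (Ncr1) and -0.12 to 0.48 (Fcgr3) in controls, and -0.074 to 0.21 (Ncr1) and -0.0094 to 0.30 (Fcgr3) in both genotypes. Between control spleen and liver ILC1s they were -0.21 to 0.31 (Fcgr3), -0.25 to 0.069 (Tyrobp), -0.26 to 0.072 (Fcer1g), -0.50 to 0.011 (Hcst) and -0.13 to 0.46 (Cd247).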
